A study of Mus musculus with 11 samples.

Results

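Tip endothelial cells (tip ECs) of the cerebral cortex at postnatal day 10 were described from single-cell RNA counts of 4 Juvenile libraries. ECs were cells with 501 to 5999 genes and under 25% mitochondrial counts that held at least 3 unique molecular identifiers (UMIs, 1 per captured RNA molecule) of Cldn5, Flt1 and Pecam1 together, at most 2 of the mural genes Rgs5 and Vtn, and at most 2 of the immune genes C1qa, C1qb and Ptprc. A tip EC was an EC with at least 6 UMIs of Mcam, Angpt2, Chst1 and Trp53i11 together and at most 1 UMI of the cycle genes Top2a, Mki67 and Birc5. The rule found 207 tip ECs among 3154 Juvenile ECs, with 40, 43, 70 and 54 in Juvenile 1 to 4, and the 2947 remaining ECs of the same libraries served as the comparison. These 3154 ECs were part of 13507 Juvenile cells kept of 14068 barcodes, and the whole series held 50625 kept cells.

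All mice were of the C57BL/6 strain, with no genetic modification named, and the cortex was depleted of myelin by centrifugation in albumin after papain and Liberase digestion. Each Juvenile library (untreated, postnatal day 10) held pooled tissue of 6 mice, as did each of the 3 Adult libraries (untreated, 7 to 11 weeks). The 2 Aged libraries (untreated, 18 months) and the 2 EAE libraries held tissue of 3 mice each. EAE is experimental autoimmune encephalomyelitis, induced in females of 7 to 11 weeks with a myelin oligodendrocyte glycoprotein peptide in Complete Freund's Adjuvant, followed by pertussis toxin. EAE tissue was taken at the peak of disease. For the other groups too, the paper's methods give females unless stated otherwise. Replicates held pooled tissue, so the spread between libraries was not that between mice. Nothing in the labels tied a library to a separate pool, litter or day.

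Tip ECs lead new vessel sprouts into tissue that lacks perfusion. They extend filopodia, follow gradients of vascular endothelial growth factor (VEGF) through the receptor Kdr, and hold back their neighbours through the Notch ligand Dll4, while the stalk ECs behind them divide and form the lumen. In the cortex of the young mouse, sprouting goes on after birth while the blood-brain barrier is already in place. Of 6 endothelial genes outside the rule, each was detected in tip ECs: Cdh5, the vascular cadherin, was at 343 ± 40.1 against 389 ± 39.4 CPM in the remaining ECs and did not pass the test (mean ± SD over the 4 libraries, here and below). CPM is the UMIs of a gene per 1000000 UMIs of the cell group in a library. Tie1 and Erg did not pass the test either, Esam and Egfl7 were higher in tip ECs (0.23 and 0.47 on the log2 scale) and Tek, the angiopoietin receptor, was lower at 127 ± 23.2 against 265 ± 28.2 CPM (log2 fold change -1.004, SE 0.11, adjusted p = 1.67e-11). The test was edgeR's quasi-likelihood test on UMIs summed over the cells of a group in a library, with the library as a block, and adjusted p is Benjamini-Hochberg adjusted over all genes tested.

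The Juvenile libraries held 16072895 to 23425535 UMIs in all. Tip EC sums came to 388973, 449115, 554432 and 339945 UMIs, against 3415487 to 7121377 for the remaining ECs. Tip ECs were deeper than the remaining ECs in each library, with median UMIs per cell of 9920, 9196, 6790 and 5795 against 6610, 7065, 5731.5 and 5106, and a rule on absolute UMIs favours deep cells. Juvenile 1 and 2, and Juvenile 3 and 4, resembled each other more than libraries across these pairs (chi-square per degree of freedom 3.07 and 2.58 within, 9.83 to 15.6 across). Every pair differed beyond the counting noise of summed UMIs. That noise leaves out which cells were drawn, so it cannot show whether the libraries of a pair differ as samples. Pairs of Juvenile libraries shared 10 to 20 barcodes, none of them in tip ECs. Scrublet marked 248 of 13507 cells as doublets (1.84%), 0 of them tip ECs, and none was removed.

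In the test of tip against remaining ECs, 1105 of 10878 genes were higher in tip ECs (10.2%) and 1000 were lower (9.19%) at an adjusted p under 0.05. Of these, 794 higher genes (7.3% of those tested) and 850 lower genes (7.81%) also had levels that did not overlap between the 4 tip and the 4 remaining sums. The median log2 fold change over all tested genes was -0.03. The 4 markers had been picked with clusters of the same libraries known, so that these tests describe which other genes went with the marker sum and are no independent proof of a cell type.

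The promoters of 3 genes that the description turns on are given as the 250 bases before the gene start, since they are the rule's marker with the most UMIs and a pair of the genes that led outside the rule. Trp53i11, a target of the tumour suppressor p53, lies at chr2:93187548-93201759 on the plus strand of GRCm38 (mm10), Apln, the gene of the secreted peptide apelin, at chrX:48025146-48034853 on the minus strand, and Apod, the gene of the lipid carrier apolipoprotein D, at chr16:31296192-31314808 on the minus strand. The sequences come from RefSeq promoters of GRCm38.p6 and read 5′ to 3′ on the gene's strand, with GGAA or TTCC, the core that ETS factors bind, in capitals.
Trp53i11, chr2:93187298-93187547, plus strand: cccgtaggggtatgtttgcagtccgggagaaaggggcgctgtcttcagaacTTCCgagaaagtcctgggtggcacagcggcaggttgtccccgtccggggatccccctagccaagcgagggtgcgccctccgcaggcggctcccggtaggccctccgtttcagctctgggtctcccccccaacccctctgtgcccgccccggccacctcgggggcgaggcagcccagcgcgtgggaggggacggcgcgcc
Apln, chrX:48034854-48035103, minus strand: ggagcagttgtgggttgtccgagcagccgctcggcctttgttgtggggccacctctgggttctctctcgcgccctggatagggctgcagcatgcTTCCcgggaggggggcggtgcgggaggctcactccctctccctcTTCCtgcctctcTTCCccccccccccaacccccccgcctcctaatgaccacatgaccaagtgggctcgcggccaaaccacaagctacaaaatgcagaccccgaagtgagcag
Apod, chr16:31314809-31315058, minus strand: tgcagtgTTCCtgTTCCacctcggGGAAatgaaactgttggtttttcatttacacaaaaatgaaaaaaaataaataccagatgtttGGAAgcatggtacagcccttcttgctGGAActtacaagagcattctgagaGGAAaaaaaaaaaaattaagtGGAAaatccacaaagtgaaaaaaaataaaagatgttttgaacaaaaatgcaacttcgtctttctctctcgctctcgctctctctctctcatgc
The windows held 1, 3 and 7 such cores, and 71.2%, 65.2% and 36.4% of their bases were G or C. On both strands, the core was found in 93.4% of 32851 promoters of this length, with a median of 3, so its presence is common. The hypoxia core ACGTG (in 16.6% of promoters) and the forkhead motif TGTTTAC (in 3.17%) had 0 matches in these 3 windows.

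The values that chose the cells were as follows, and no test applies to them. Trp53i11 stood at 728, 525, 785 and 962 CPM in tip ECs of Juvenile 1 to 4 against 30.4 to 51.5 CPM in the remaining ECs. Mcam, the cell adhesion molecule CD146, stood at 324, 252, 227 and 259 CPM against 25.2 to 41.0. Angpt2, the angiopoietin that antagonises Tek, stood at 296, 240.5, 316 and 297 CPM against 14.8 to 19.2. Chst1, a sulfotransferase that acts on keratan sulfate, stood at 252, 145, 294 and 371 CPM against 6.87 to 11.1. Mcam lies at chr9:44134469-44142727, Angpt2 at chr8:18690263-18741562 and Chst1 at chr2:92599707-92615250. Angpt2 lies within Mcph1 and Mcam overlaps Gm10687, both on the opposite strand, and whether the authors' counting used strand was not stated, so reads of these partners could not be told apart.

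Most tip ECs carried several of the 4 markers. All 4 were present in 63 cells, 3 in 88, 2 in 42 and 1 in 14, and the share with at least 3 was 75.0%, 74.4%, 72.9% and 70.4% in Juvenile 1 to 4. Trp53i11 gave 45.2% to 50.9% of the marker UMIs, and each of the other markers gave 12.5% to 21.6%. In 38 of the 207 tip ECs (8, 6, 11 and 13 in Juvenile 1 to 4), 1 marker gave over 80% of the marker UMIs. The median marker sum per tip EC was 11.5, 8, 11.5 and 9 UMIs, and the highest was 57. At the threshold, 39 cells with exactly 6 marker UMIs were set beside 49 ECs with 5. The cells were pooled over libraries, as a description with no test. Their marker sum was fixed by this choice, so only its split among the 4 markers could vary freely. Trp53i11 (301 against 273 CPM) and Mcam (147 against 135 CPM) were close. Apln (795 against 381 CPM), Angpt2 (153 against 73.5 CPM) and Chst1 (117 against 80.3 CPM) lay further apart. Esm1 was at 33.7 against 2.30 CPM, on 11 and 1 UMIs.

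**Figure D1:**
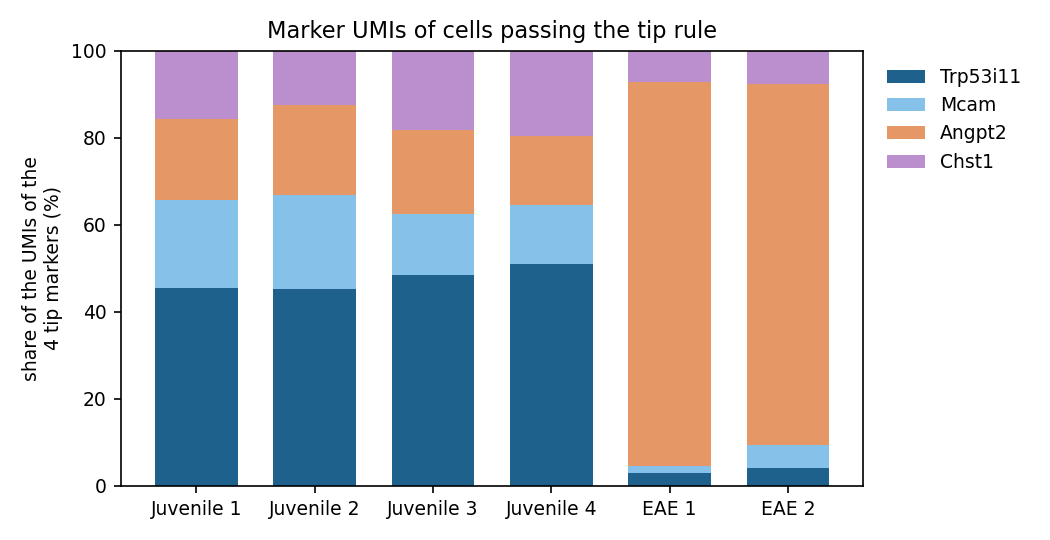
Share of the UMIs of Trp53i11, Mcam, Angpt2 and Chst1 (y axis, percent) in cells passing the tip rule, stacked for the 4 Juvenile and 2 EAE libraries (x axis). Trp53i11 gave 45.2% to 50.9% in the Juvenile libraries, while Angpt2 gave 88.1% and 83.0% in the EAE libraries.

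Each marker was also read in cells chosen by the other 3 (at least 5 UMIs of those), as a description with no test, since the 4 were picked together as markers of the same cells in these libraries. Trp53i11 then stood at 676, 484, 764 and 704 CPM in 142 cells, or 657 ± 121 against 59.8 ± 7.74 CPM (log2 fold change 3.47). Chst1 was at 213, 122, 247 and 296 CPM in 222 cells, or 219.7 ± 73.4 against 11.2 ± 2.68 CPM (log2 fold change 4.37). Angpt2 in 210 cells gave 189 ± 25.3 against 24.8 ± 2.51 CPM (log2 fold change 3.01), and Mcam in 203 cells gave 233 ± 33.2 against 36.6 ± 11.6 CPM (log2 fold change 2.74). At a threshold of 4 UMIs the log2 fold changes were 3.42, 4.25, 3.05 and 2.67 in the same order.

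The 11 named genes that led the higher group were taken by the rule of the largest log2 fold change with at least 50 CPM, and several encode secreted or surface proteins. Apln, the gene of apelin, was at 974, 597, 1389 and 1135 CPM in tip ECs and at 107, 131, 129 and 147 CPM in the remaining ECs of Juvenile 1 to 4. Every tip value lay above every remaining value (log2 fold change 3.02, SE 0.28, adjusted p = 0.00822), and without Juvenile 4 the same fit gave 3.01, adjusted p = 0.0626. Apod stood at 938, 928, 1217 and 1503 CPM against 117, 132, 143 and 147 CPM (log2 fold change 3.13, SE 0.09, adjusted p = 1.41e-38). The lowest tip value of Apod lay far above its highest remaining value.

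Madcam1, the mucosal addressin that binds an integrin of lymphocytes, was at 180.0, 82.4, 70.3 and 112 CPM against 3.09 to 9.52 CPM (log2 fold change 4.10, SE 0.22, adjusted p = 2.67e-23). Its UMIs came from few cells: 7, 6, 12 and 8 tip ECs held any, and the top 3 cells of a library held 46.2% to 91.4% of them. Sirpa, an inhibitory receptor for CD47, was at 159, 129, 224 and 279 CPM against 23.8 to 29.6 CPM (log2 fold change 2.94, SE 0.21, adjusted p = 8.32e-07). Clec1a, a C-type lectin receptor, was at 180.0, 151, 202 and 279 CPM against 28.7 to 32.7 CPM (log2 fold change 2.79, SE 0.13, adjusted p = 4.4e-27). For Sirpa and Clec1a, Juvenile 4 was highest and Juvenile 2 lowest, with no overlap between the groups.

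Fxyd6, a regulator of the sodium pump, rose from 14.03 ± 4.58 to 106 ± 53.8 CPM (log2 fold change 3.01, SE 0.21, adjusted p = 1.45e-11), with its lowest tip value in Juvenile 1 (59.1 CPM). Gng2, a G protein gamma subunit, was at 87.4, 49.0, 41.5 and 47.1 CPM against 5.53 to 12.4 CPM (log2 fold change 2.72, SE 0.25, adjusted p = 2.37e-14). Ppm1j, a protein phosphatase, was at 57.4 ± 6.74 against 6.99 ± 1.81 CPM (3.08), C1qtnf6, a secreted C1q-related protein, at 81.7 ± 11.4 against 14.8 ± 2.35 CPM (2.53), Eva1a at 136 ± 22.1 against 24.7 ± 1.51 CPM (2.52) and Fam102b at 59.8 ± 21.7 against 8.76 ± 1.64 CPM (2.77), all on the log2 scale and with no overlap. Ppm1j, C1qtnf6, Gng2, Eva1a and Fam102b each overlap a gene on the other strand, as do Esm1, Dll4, Adm, Nebl, Slc1a1 and Mxd3 among the 42 symbols looked up. Overlaps of the other genes given here were not looked up. The 11 genes were higher in 4 of 4 libraries, and apart from Apln each passed the test in all 21 alternatives, which included remaining ECs matched on UMIs per cell and cells thinned to 2000 UMIs.

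**Figure D2:**
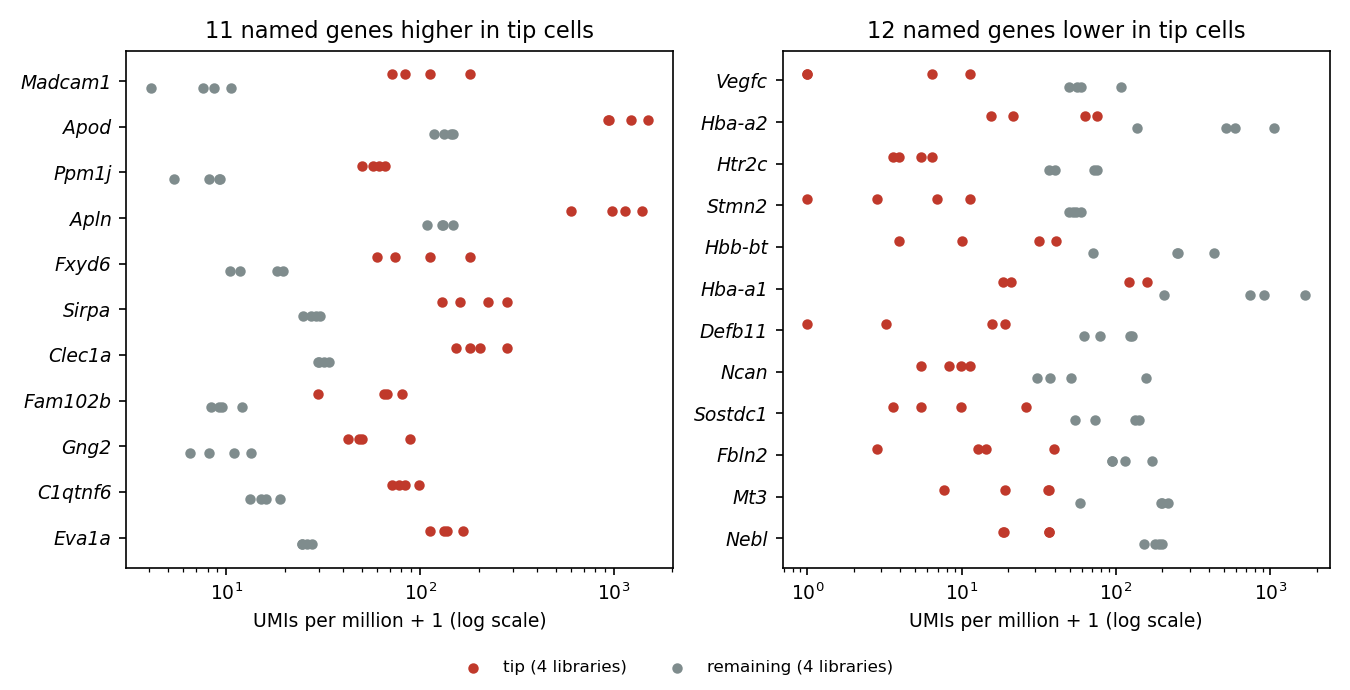
Levels (x axis, CPM plus 1, log scale) of the 11 leading higher and 12 leading lower genes (y axis) in tip ECs and in the remaining ECs, 1 point per Juvenile library. For each of the 23 genes the 4 tip values stand apart from the 4 remaining values, such as 928 to 1503 against 117 to 147 CPM for Apod.

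The 12 genes that led the lower group mixed vessel genes with genes of other cells. Vegfc, the ligand of Flt4, was at 10.3, 0, 5.41 and 0 CPM in tip ECs against 108, 48.3, 55.2 and 58.4 CPM (log2 fold change -3.96, SE 0.34, adjusted p = 2.66e-15). Fbln2, an extracellular matrix protein, was at 38.6, 13.4, 1.80 and 11.8 CPM against 93.1 to 171 CPM (log2 fold change -2.91, SE 0.23, adjusted p = 2.5e-12), and Nebl, an actin-binding protein, at 36.0, 17.8, 36.1 and 17.6 CPM against 150.5 to 197 CPM (log2 fold change -2.63, SE 0.17, adjusted p = 6.57e-21). The highest tip value of each of these 3 lay well under the lowest remaining value. Stmn2, a neuronal microtubule regulator, was at 4.49 ± 4.58 against 53.0 ± 4.37 CPM (-3.63 on the log2 scale).

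The other 8 were Hba-a1, Hba-a2 and Hbb-bt (globins of red blood cells, each with a near-identical copy between which reads can be split), Htr2c, Sostdc1 and Defb11, and Ncan and Mt3, which neural cells express. Hba-a2 was at 74.6, 62.3, 14.4 and 20.6 CPM against 1058, 589, 513 and 136 CPM (log2 fold change -3.74, SE 0.21, adjusted p = 9.69e-08), and Htr2c at 3.84 ± 1.32 against 55.2 ± 20.6 CPM (-3.70). RNA of other cells moved with these genes. The choroid plexus list (Ttr, Folr1, Kl, Clic6, Enpp2) summed to 3738 to 8068 CPM in tip ECs and 17336 to 38386 CPM in the remaining ECs, with 5 of 5 genes lower in tip ECs. Of Ttr, the median per cell was 31.5, 45, 53.5 and 44 UMIs in tip ECs. It was 27, 32, 48.5 and 42 in the remaining ECs. The means were 33.3 to 61.3 and 138 to 251, since part of the remaining ECs held up to 12247. A limit of 5% Ttr UMIs was passed by 162 remaining ECs and 1 tip EC. The red blood cell list summed to 76.5 to 784 CPM against 808 to 5899 CPM. Of it, 3 of 4 tested genes were lower and Alas2 was at 0 in tip ECs, beside 9.19% of all tested genes lower.

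In the fit without cells that carried such RNA (7 of 207 tip and 287 of 2947 remaining ECs, by a rule added after the data were seen), 1018 genes were higher and 777 lower of 10149 tested. Hba-a2 then gave -0.02, adjusted p = 0.974, Hbb-bt -0.15, adjusted p = 0.815, Hba-a1 0.23, adjusted p = 0.389, Htr2c -1.14, adjusted p = 0.185, Sostdc1 -0.22, adjusted p = 0.803 and Defb11 -0.76, adjusted p = 0.269. The rule removed cells by their haemoglobin and Ttr UMIs, among other markers, so that the loss of the 3 globin calls follows from the filter and is no separate result. Vegfc (-3.92), Stmn2 (-3.10), Fbln2 (-2.77), Nebl (-2.68), Ncan (-1.24) and Mt3 (-0.74) still passed. The 11 leading higher genes all passed in that fit.

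Among the other marker lists, microglial genes summed to 144 to 407 CPM in tip ECs against 174 to 388 CPM (0 of 12 passed), astrocyte genes to 204 to 343 against 274 to 512 CPM (6 of 7 lower, Gja1 higher), neuronal genes to 3.61 to 46.8 against 89.3 to 107 CPM (2 of 3 tested lower, Syt1 and Dcx at 0), fibroblast genes to 17.6 to 232 against 149 to 183 CPM (3 of 8 lower, Lum at 0) and oligodendrocyte genes to 18.0 to 57.9 against 59.4 to 86.7 CPM (2 of 5 tested lower, Olig2 at 0). Over all tested genes, 10.2% were higher and 9.19% lower. The calls of Tubb3, Pdgfra, Cspg5 and Lum held in 5 of 17, 7 of 16, 6 of 20 and 6 of 11 alternatives. Those of Stmn2 and Gfap held in 21 of 21 and 15 of 15, and that of Aqp4 in 14 of 19. Pericyte genes summed to 2.94 to 73.5 against 9.37 to 21.7 CPM, with Kcnj8 and Atp13a5 at 0 in tip ECs. Smooth muscle genes stood at 51.4, 1623, 32.5 and 14.7 CPM in tip ECs against 17.1 to 55.9 CPM, and 2 tip ECs of Juvenile 2 held 499 and 213 of that library's 729 UMIs. In Juvenile 2, 39.5% of tip ECs had no UMI of 6 mural genes, against 80.0%, 81.4% and 90.7% in the other libraries. These genes were Rgs5, Vtn, Pdgfrb, Kcnj8, Abcc9 and Higd1b. In the remaining ECs of Juvenile 1 to 4 the share was 65.7%, 65.0%, 84.1% and 88.0%. The part of this RNA in the list results below was not tested beyond the fit without such cells and a fit of ECs with no UMI of the 6 mural genes. In the latter, 100 values of the named genes kept their direction and their side of the threshold, 8 no longer passed and 1 newly passed.

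Genes known from tip cells and sprouting formed a list of which 23 genes were tested. Of these, 17 were higher in tip ECs and 1 lower, beside 10.2% and 9.19% of all tested genes, and 5 did not pass. The median log2 fold change was 1.26 (all tested genes, -0.03). The list overlaps what was known of these data and is no independent evidence of its direction. Plaur, the urokinase receptor, was at 116, 120.2, 164 and 271 CPM against 34.6 to 45.7 CPM (log2 fold change 2.09, SE 0.35, adjusted p = 0.0247). The groups did not overlap, though without Juvenile 3 the fit gave 2.06, adjusted p = 0.0785. Lamb1, a laminin chain, was at 247, 118, 144 and 218 CPM against 32.6 to 51.8 CPM (log2 fold change 2.20, SE 0.16, adjusted p = 1.85e-10). Kcne3, a potassium channel subunit named as a tip cell gene, had the largest value (3.17, adjusted p = 0.000331), on 17 UMIs in all tip ECs and 0 in Juvenile 1. Rgcc, named after its values were seen, and Cd34 were at 903 ± 86.1 against 276 ± 9.81 CPM (1.76) and 1418 ± 189 against 790.0 ± 109 CPM (0.90).

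Esm1 and Adm, both known tip cell genes, did not pass. Esm1 was at 203, 66.8, 18.0 and 11.8 CPM in tip ECs against 16.1, 10.8, 0.843 and 11.2 CPM (log2 fold change 2.86, SE 0.69, adjusted p = 0.0771). Only 3 to 6 tip ECs per library held an Esm1 UMI, tip values were higher in Juvenile 1 and 2 than in Juvenile 3 and 4, and the fitted change ranged from 0.47 to 4.27 over the 21 alternatives, of which 8 did not pass and the others did. Adm, the gene of adrenomedullin, was at 224, 143, 501 and 562 CPM against 67.3 to 83.3 CPM (log2 fold change 2.24, SE 0.41, adjusted p = 0.0509). Its groups did not overlap in any library. It did not pass in 10 of 21 alternatives, with adjusted p up to 0.233, and passed in the others, such as DESeq2 (2.11, adjusted p = 5.22e-06). Pgf had 8 UMIs in tip ECs (0.92, adjusted p = 0.464), Igf1r gave 0.15, adjusted p = 0.45 and Ednrb 0.11, adjusted p = 0.951. Igf2, at 16.4 ± 6.40 against 57.3 ± 18.0 CPM, was lower (-1.75, adjusted p = 1.1e-07) and gave 0.56, adjusted p = 0.308 without cells that carried RNA of other types.

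Of the VEGF and angiopoietin pathway, 5 of 14 tested genes were higher, 5 lower, beside 10.2% and 9.19% of all tested genes (median 0.16). The ligands Vegfc and Vegfa were lower, Vegfa on 2 UMIs in tip ECs (-2.81, adjusted p = 0.00559), a call lost without Juvenile 3 (-2.19, adjusted p = 0.106) and without Juvenile 4 (-2.44, adjusted p = 0.0561). The Vegfa call held in 12 of 18 alternatives. The VEGF receptors tested were higher. Nrp1, the VEGF and semaphorin co-receptor, was at 756, 639, 741 and 806 CPM against 287 to 335 CPM (log2 fold change 1.29, SE 0.08, adjusted p = 2.49e-21), with no overlap. Kdr, VEGF receptor 2, named after its values were seen, was at 869, 899.5, 943 and 856 CPM against 651 to 725 CPM (log2 fold change 0.46, SE 0.08, adjusted p = 2.83e-06), a small and regular step. Nrp2 (0.70) and Flt4, VEGF receptor 3 (0.74), were higher too, and Tek was lower as given above.

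In the apelin and adrenomedullin list, 3 of 7 tested genes were higher, 1 lower, beside 10.2% and 9.19% of all tested genes. The calls of all 3 higher ones, Apln, Aplnr and Ramp3, depended on single libraries. That of Apln was lost without Juvenile 4, as given above, and held in 20 of 21 alternatives. The calls of Aplnr and Ramp3 held in 11 and 17 of 21. Beside the ligand Apln, its receptor Aplnr was at 449.9, 354, 565 and 591 CPM against 364 to 395 CPM (log2 fold change 0.40, SE 0.11, adjusted p = 0.0149), so that Juvenile 2 lay under the remaining ECs, and the call was lost without Juvenile 1, 3 or 4 (adjusted p = 0.0863, 0.127 and 0.0992). Of the adrenomedullin receptor, Calcrl was lower at 33.7 ± 15.004 against 54.5 ± 12.3 CPM (-0.69, adjusted p = 0.00654, and -0.52, adjusted p = 0.129 without Juvenile 3). Its partner Ramp3 was at 54.0, 28.9, 3.61 and 8.82 CPM (1.48, adjusted p = 0.00116), high in Juvenile 1 and 2 and lost without Juvenile 1 (1.04, adjusted p = 0.201), and Ramp2 gave -0.19, adjusted p = 0.0689.

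Of the Notch list, 3 of 15 tested genes were higher, 1 lower, against 10.2% and 9.19% of all tested genes (median 0.14). Dll4, the ligand, was at 221, 214, 168 and 197 CPM against 84.0 to 94.6 CPM (log2 fold change 1.21, SE 0.11, adjusted p = 2.82e-14), and Nrarp, a target that feeds back on the pathway, at 319, 232, 271 and 362 CPM against 126 to 157 CPM (log2 fold change 1.13, SE 0.12, adjusted p = 1.71e-08). Neither overlapped. Mfng, which glycosylates Notch, was higher at 253 ± 37.5 against 173 ± 7.31 CPM (0.59), and the target Hey1 lower at 67.2 ± 17.5 against 101 ± 14.9 CPM (-0.56, and -0.42, adjusted p = 0.0984 without Juvenile 3). The receptors Notch1 (0.38, adjusted p = 0.54) and Notch4 (0.18, adjusted p = 0.521), the ligand Jag1 (-0.01, adjusted p = 0.978) and the target Hes1 (0.12, adjusted p = 0.332) did not pass.

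Of the Wnt list, 2 of 19 tested genes were higher, 4 lower (median -0.10). The share that was higher lay near that over all tested genes (10.2%, with 9.19% lower), so the count of higher members is no result about the list. The lower members were Notum, which inactivates Wnt ligands, at 53.7 ± 14.7 against 151 ± 26.8 CPM (log2 fold change -1.40, SE 0.15, adjusted p = 2.29e-11), Nkd1 at 225 ± 29.7 against 463 ± 13.1 CPM (log2 fold change -0.99, SE 0.09, adjusted p = 8.38e-14), Tnfrsf19 at 34.2 ± 14.9 against 113 ± 10.6 CPM (-1.59) and Sp5 (-1.01, lost without Juvenile 1 at -1.03, adjusted p = 0.0863, and without Juvenile 2 at -0.84, adjusted p = 0.138). The call of Sp5 held in 11 of 21 alternatives. Lef1 (-0.09, adjusted p = 0.662) and Axin2 (-0.23, adjusted p = 0.645), also targets, did not pass, and the transcription factors Foxf2 (0.37) and Foxq1 (0.33) were higher.

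Of the BMP and TGF-beta list, 4 of 18 tested genes were higher, 6 lower, beside 10.2% and 9.19% of all tested genes (median -0.12). Smad1, a signal transducer of the BMP receptors, was at 198, 100.2, 159 and 203 CPM against 50.6 to 57.4 CPM (log2 fold change 1.68, SE 0.15, adjusted p = 3.92e-09), and the ligand Tgfb1 at 363 ± 77.5 against 145 ± 5.93 CPM (log2 fold change 1.38, SE 0.11, adjusted p = 7.65e-10). Of the Id genes, BMP targets, Id1 was at 236 ± 99.5 against 464 ± 36.0 CPM (-0.97, adjusted p = 0.00858), and Id2 (-1.31) and Id3 (-0.58) were lower, while Id4 (0.11, adjusted p = 0.901) and the inhibitor Smad7 (-0.19, adjusted p = 0.522) did not pass and Bambi, a decoy receptor, was higher (0.62). The inhibitor Smad6 (9.28 ± 8.79 against 30.0 ± 9.87 CPM, -1.63) and the ligand Bmp4 (3.03 ± 1.49 against 12.01 ± 2.59 CPM, -1.98, past the test in 15 of 20 alternatives, with adjusted p up to 0.12) were lower as well.

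Of the axon guidance receptors and ligands, 8 of 20 tested genes were higher, 5 lower, beside 10.2% and 9.19% of all tested genes (median 0.31). Plxnd1, the endothelial plexin, was at 301, 245, 276 and 265 CPM against 74.8 to 115 CPM (log2 fold change 1.59, SE 0.12, adjusted p = 7.95e-14), and the ephrin receptor Epha2 at 66.3 ± 23.0 against 22.4 ± 4.38 CPM (1.62). Lower were the semaphorins Sema3g, at 6.97 ± 10.8 against 29.3 ± 11.2 CPM (-2.14), and Sema3c, at 18.0 ± 7.22 against 69.8 ± 16.1 CPM (-1.93), and the receptor Epha4, at 11.0 ± 7.71 against 38.4 ± 6.19 CPM (-1.68).

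Genes of actin and filopodia followed, of which 14 of 25 tested genes were higher, 3 lower, beside 10.2% and 9.19% of all tested genes (median 0.47). Fscn1, the actin bundler of filopodia, was at 1033, 906, 1289.6 and 1468 CPM against 297 to 324 CPM (log2 fold change 1.95, SE 0.14, adjusted p = 5.7e-06). Pfn1, an actin monomer binder, was at 2598 ± 183 against 1318 ± 109 CPM (log2 fold change 1.04, SE 0.08, adjusted p = 1.76e-17) and Myo10, the motor that travels to filopodial tips, at 300.5 ± 5.42 against 165 ± 4.72 CPM (log2 fold change 0.93, SE 0.09, adjusted p = 1.19e-12). The tip values of these 3 stood above all remaining values. Ezr, which links actin to the membrane, was lower at 18.2 ± 5.57 against 77.8 ± 13.3 CPM (-1.97), and Actb (0.83, adjusted p = 0.052) and Rhoa (0.05, adjusted p = 0.757) did not pass.

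The basement membrane, the sheet of laminin, collagen IV, nidogen and perlecan on which ECs rest, had a list median of 0.65, and 14 of 21 tested genes were higher, 2 lower, beside 10.2% and 9.19% of all tested genes. Beside Lamb1, the laminin chain Lama4 was at 268 ± 40.0 against 90.4 ± 9.42 CPM (log2 fold change 1.62, SE 0.11, adjusted p = 6.52e-20), and Pxdn, the peroxidase that crosslinks collagen IV, at 78.7 ± 23.1 against 19.6 ± 6.75 CPM (2.07). Perlecan (Hspg2, 1.31), the nidogens (Nid1, 1.20, and Nid2, 1.48) and the collagen IV chains (Col4a1, 0.65, and Col4a2, 0.61), named after their values were seen, were higher too. Col18a1, the collagen that yields endostatin, was lower at 23.1, 31.2, 19.8 and 11.8 CPM against 87.9 to 182 CPM (log2 fold change -2.35, SE 0.19, adjusted p = 4.06e-16), and Fn1 did not pass (-0.19, adjusted p = 0.092).

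Of the integrins and matrix proteases, 8 of 21 tested genes were higher, 2 lower, beside 10.2% and 9.19% of all tested genes (median 0.22). Itga4 was at 129 ± 16.7 against 46.7 ± 1.26 CPM (log2 fold change 1.51, SE 0.14, adjusted p = 2.02e-14). Itgb5 was lower (-1.54, adjusted p = 0.0405), a call that was lost without Juvenile 2, 3 or 4 (-1.68, adjusted p = 0.0597, -1.08, adjusted p = 0.353 and -1.30, adjusted p = 0.152). The Itgb5 call held in 7 of 19 alternatives. Plat, the tissue plasminogen activator, gave 0.15, adjusted p = 0.325.

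Of the glycolysis genes, 6 of 14 tested genes were higher, 1 lower, beside 10.2% and 9.19% of all tested genes (median 0.22). Pfkfb3, which makes the activator of phosphofructokinase, was at 33.1 ± 4.29 against 10.5 ± 0.994 CPM (log2 fold change 1.71, SE 0.27, adjusted p = 7.93e-07), the phosphofructokinase Pfkp at 127 ± 60.6 against 49.4 ± 2.17 CPM (1.37) and the pyruvate kinase Pkm at 1046 ± 193 against 751 ± 42.3 CPM (0.52). The lactate dehydrogenase Ldhb was lower (-1.21), and Gapdh (0.01, adjusted p = 0.95) and Ldha (0.08, adjusted p = 0.553) did not pass. In the hypoxia response list, 4 of 19 tested genes were higher, 5 lower, beside 10.2% and 9.19% of all tested genes (median 0.08). Ankrd37 was at 116, 109, 317 and 471 CPM (1.17), high in Juvenile 3 and 4, while Bnip3 (-1.03, and -0.78, adjusted p = 0.0973 without Juvenile 3) was lower and Hif1a gave 0.07, adjusted p = 0.83.

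Of the list of barrier junctions, 2 of 12 tested genes were higher, 5 lower, against 10.2% and 9.19% of all tested genes (median -0.15): occludin (Ocln) was at 122 ± 20.7 against 231 ± 9.80 CPM (log2 fold change -0.87, SE 0.11, adjusted p = 3.72e-09), and Cgnl1 (-0.73) was lower, while Jam3 was higher (1.13). Of the transporters, 4 of 16 tested genes were higher, 9 lower, beside 10.2% and 9.19% of all tested genes (median -0.38). Slc6a6, the taurine transporter, was at 267, 160.3, 119 and 88.2 CPM against 695 to 838 CPM (log2 fold change -2.25, SE 0.24, adjusted p = 0.00452), so that its highest tip value was far below the lowest remaining value. The efflux pump Abcb1a was at 153 ± 23.3 against 267 ± 24.7 CPM (-0.75), the organic anion carrier Slco1a4 at 248 ± 49.3 against 508 ± 81.3 CPM (-0.97), and the lactate carrier Slc16a1 gave -0.73. Mfsd2a, which carries lipid and limits vesicle transport, was at 653 ± 69.4 against 656 ± 83.4 CPM (0.05, adjusted p = 0.731).

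Of the genes of caveolae, vesicles and fenestrae, 1 of 9 tested genes was higher, 1 lower, near the shares over all tested genes (10.2% and 9.19%), so that the counts are no result about the list. Ptrf was higher (0.36, and 0.25, adjusted p = 0.0676 without Juvenile 4), Sdpr lower (-0.67), and Cav1 gave -0.25, adjusted p = 0.0776. Plvap, the protein of fenestral diaphragms, was at 359.9, 274, 0 and 0 CPM in tip ECs against 85.6, 38.1, 6.46 and 18.1 CPM (1.93, adjusted p = 0.24). The Plvap UMIs of tip ECs came from 5 cells in Juvenile 1 and 5 in Juvenile 2, and Juvenile 3 and 4 had none.

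Of the arterial list, 0 of 14 tested genes were higher, 8 lower, beside 10.2% and 9.19% of all tested genes (median -1.72). The gap junction gene Gja5 (4.31 ± 7.46 against 18.4 ± 8.09 CPM, -2.14) and the kinase Bmx (6.24 ± 11.3 against 23.2 ± 7.99 CPM, -1.95, and -1.74, adjusted p = 0.0764 without Juvenile 3) were lower, along with Vegfc and Sema3g. Gkn3 (69.4, 4.45, 1.80 and 0 CPM against 183 to 337 CPM, -3.78, adjusted p = 0.0544), Cxcl12 (-2.34, adjusted p = 0.124) and Gja4 (-1.60, adjusted p = 0.11) did not pass. Of the venous list, 2 of 11 tested genes were higher, 7 lower, beside 10.2% and 9.19% of all tested genes (median -0.43). The adhesion molecules Vcam1 (10.7 ± 6.15 against 65.9 ± 28.2 CPM, -2.50) and Icam1 (17.1 ± 7.93 against 46.8 ± 25.1 CPM, -1.30), the chemokine receptor Darc (-2.42) and the venous regulator Nr2f2 (43.6 ± 17.5 against 81.3 ± 21.9 CPM, -0.76, and -0.54, adjusted p = 0.102 without Juvenile 1) were lower. The calls of Icam1 and Darc held in 19 of 21 alternatives, that of Nr2f2 in 16 and that of Vcam1 in all 21. The 2 higher members were Vwf (0.59) and Car4 (1982 ± 351 against 1323 ± 325 CPM, 0.65).

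Of the endothelial transcription factors, 9 of 23 tested genes were higher, 5 lower, beside 10.2% and 9.19% of all tested genes (median 0.19). Meox1, a homeobox factor, was at 309, 265, 319 and 368 CPM against 67.9 to 94.5 CPM (log2 fold change 2.02, SE 0.10, adjusted p = 6.63e-26), with no overlap. Prdm1 was at 70.0 ± 13.4 against 20.8 ± 0.898 CPM (1.79), Ets2, of the ETS family, at 125 ± 15.7 against 50.7 ± 4.08 CPM (1.37), and Tcf4 gave 0.85. The flow-responsive factors Klf2 (-0.63) and Klf4 (-0.76) were lower and were named after their values were seen.

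Of the insulin-like growth factor list, 2 of 10 tested genes were higher, 3 lower, small counts beside 10.2% and 9.19% of all tested genes. Igfbp7, a secreted binding protein, was at 6432, 6128, 5781 and 6189 CPM against 2466 to 2727 CPM (log2 fold change 1.27, SE 0.07, adjusted p = 3.65e-23), with no overlap. Igfbp2 (-1.96, and -0.26, adjusted p = 0.382 without cells carrying RNA of other types) and Igfbp5 (-2.21, and -1.86, adjusted p = 0.0514 without Juvenile 4) were lower. The Igfbp5 call held in 11 of 18 alternatives, and that of Igfbp2 in 19 of 21. Of the PDGF ligands, Pdgfb, which recruits pericytes, was at 169.7, 120.2, 129.9 and 121 CPM against 76.5 to 89.8 CPM (log2 fold change 0.76, SE 0.12, adjusted p = 1.36e-06), and Pdgfa was lower at 6.72 ± 3.76 against 43.6 ± 11.4 CPM (-2.69). In the leukocyte adhesion list, 3 of 8 tested genes were higher, 2 lower, beside 10.2% and 9.19% of all tested genes (median -0.19). The higher ones included Madcam1 and Cd34, and the lower ones were Vcam1 and Icam1.

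Immediate early genes, which also respond to tissue dissociation, were included as a control list, and 8 of 16 tested genes were higher, 2 lower, beside 10.2% and 9.19% of all tested genes (median 0.30). Egr1 (0.98) was higher, as were Socs3 (1.19) and Nr4a1 (0.75). The latter 2 each passed under 19 of 21 alternatives (down to 0.64 for Socs3 and 0.28 for Nr4a1, with adjusted p up to 0.174 and 0.289). Atf3 was higher too (0.59, and 0.40, adjusted p = 0.0734 without Juvenile 3). Fos (-0.06, adjusted p = 0.747) and Jun (-0.05, adjusted p = 0.717) did not pass. Of the cell cycle list, 1 of 19 tested genes was higher, 17 lower (median -1.61), which follows from the limit on cycle genes in the rule.

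**Figure D3:**
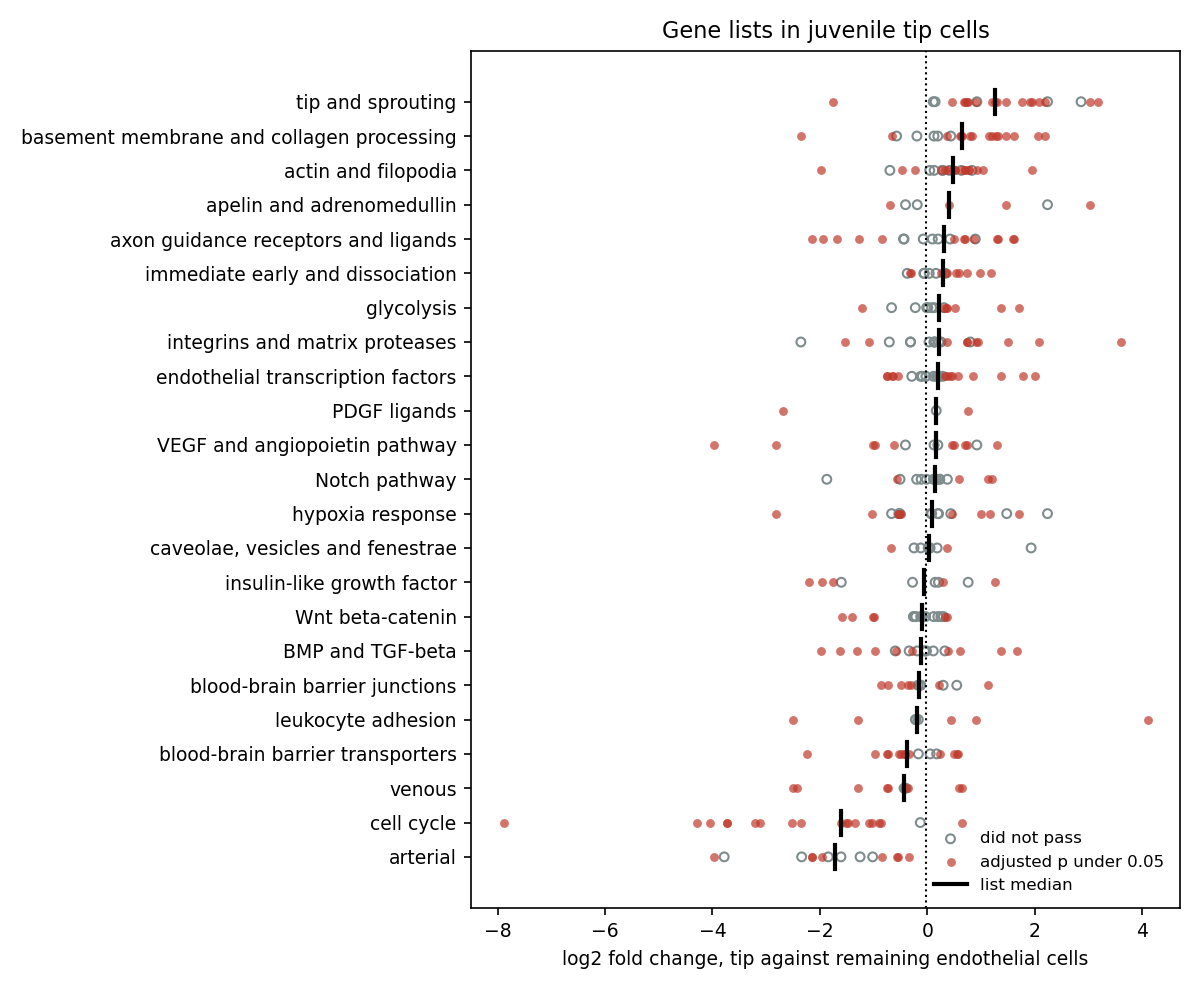
Log2 fold change (x axis) of each tested gene of the functional lists (y axis) in tip against remaining ECs of 4 Juvenile libraries, with filled points for an adjusted p under 0.05, open points otherwise, a bar for the list median and a dotted line for the median of all tested genes (-0.03). The medians run from -1.72 for the arterial list to 1.26 for the tip and sprouting list.

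Differences per cell were read at equal depth, with each cell thinned to 2000 UMIs. Apln was found in 69.3% of tip ECs and 15.5% of remaining ECs (means of 4 libraries), against 0.945% of microglia of the same libraries, which should lack it. Unthinned, the shares were 84.8%, 29.1% and 1.28%. For Dll4 they were 28.9%, 17.8% and 0.370% thinned and 69.9%, 37.7% and 0.630% unthinned, and for Adm 42.1%, 12.99% and 0.815% thinned and 73.1%, 28.2% and 1.29% unthinned. Apln and Adm were thus found in most or many tip ECs, while Madcam1 was found in 7.94% and Esm1 in 7.41% of them (thinned, 15.9% and 10.1% unthinned), against 0.0405% and 0.0342% of microglia. Fscn1 reached 83.0% of tip ECs and 39.7% of remaining ECs. It was also found in 47.2% of microglia, so a background level for this gene could not be read from them.

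Tip ECs were next set against the 218 cycling ECs of the same libraries (61, 32, 70 and 55, with at least 2 UMIs of Top2a, Mki67 and Birc5), which were deeper still at medians of 9887 to 12560.5 UMIs per cell. Of 7211 genes tested, 1168 were higher in tip ECs (16.2%) and 1296 lower (18%). The sprouting list was higher in 17 of 21 tested genes and lower in 0 (median 1.78, all tested genes -0.04), the basement membrane list in 13 of 19 and lower in 3 (1.05), and the Notch list in 9 of 13 and lower in 0 (0.75). Not every list kept its balance from the test against the remaining ECs. Of the transporters, 7 of 16 were higher, Mfsd2a and Slco1a4 among them, and 5 lower (0.28). Of the arterial list, 2 of 12 were higher, Hey1 and Edn1, and 3 lower (-1.06). Among the genes that led were Madcam1 (5.46, adjusted p = 4.21e-05), Esm1 (5.19, adjusted p = 4.09e-14), Apod (1147 ± 273 against 53.0 ± 15.2 CPM, 4.43, adjusted p = 3.12e-20) and Slc1a1. Slc1a1, a glutamate transporter, was at 111, 114, 159 and 182 CPM against 5.15 to 8.11 CPM (log2 fold change 4.34, SE 0.26, adjusted p = 9.74e-18), far apart in each library.

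In the other direction stood genes of division that the rule itself removes in kind. Mxd3, Asf1b and Cenpe had 0 UMIs in all tip ECs and 86.4 ± 6.50, 80.3 ± 23.0 and 73.8 ± 12.9 CPM in cycling ECs, and so were at least 49.7-fold, 45.7-fold and 42.1-fold lower, with 3 UMIs over the tip group as the limit that a count of 0 allows. Pbk had 1 UMI in tip ECs against 207 ± 32.1 CPM, a ratio of 363 with a 95% counting interval of 64.9 to 14360.

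The same rule applied to all 11 libraries gave the share of ECs that are tip ECs. It was 7.98%, 9.58%, 6.34% and 4.91% in Juvenile 1 to 4 (95% exact binomial intervals 5.76 to 10.7, 7.02 to 12.7, 4.98 to 7.94 and 3.71 to 6.36, for counting error only). In the Adult libraries it was 0 of 610 ECs, which allows a share of up to 0.492%, 2 of 2201 (0.0909%) and 0 of 2327, which allows up to 0.129%. In the Aged libraries it was 4 of 2936 (0.136%) and 6 of 2710 (0.221%), and in the EAE libraries 45 of 3043 (1.48%) and 48 of 2854 (1.68%). The Juvenile shares lay above all others, by 7.17 points over Adult, 7.02 over Aged and 5.62 over EAE in the means. These shares are a description with no test, because the markers were picked on the Juvenile libraries. ECs of the other groups were shallower, at median UMIs of 3033 to 3420 in Adult and 2259 to 2423.5 in Aged and EAE.

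A rule on the share of UMIs (at least 0.15% of a cell's UMIs and 3 marker UMIs) gave 3.70% in Juvenile and 1.93% in EAE, and cells thinned to 2000 UMIs with at least 3 marker UMIs gave 5.20% in Juvenile, 0.0506% in Adult, 0.569% in Aged and 3.74% in EAE. Thinning changed the depth and the marker threshold together, so that their parts in the smaller distance to EAE cannot be told apart, and it left out 36.5% to 39.1% of EAE ECs and 2.90% to 4.64% of Juvenile ECs. In the EAE cells Angpt2 alone gave 88.1% and 83.0% of the marker UMIs, and 11.1% and 10.4% of the cells held at least 3 of the 4 markers, against 70.4% to 75.0% in Juvenile.

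**Figure D4:**
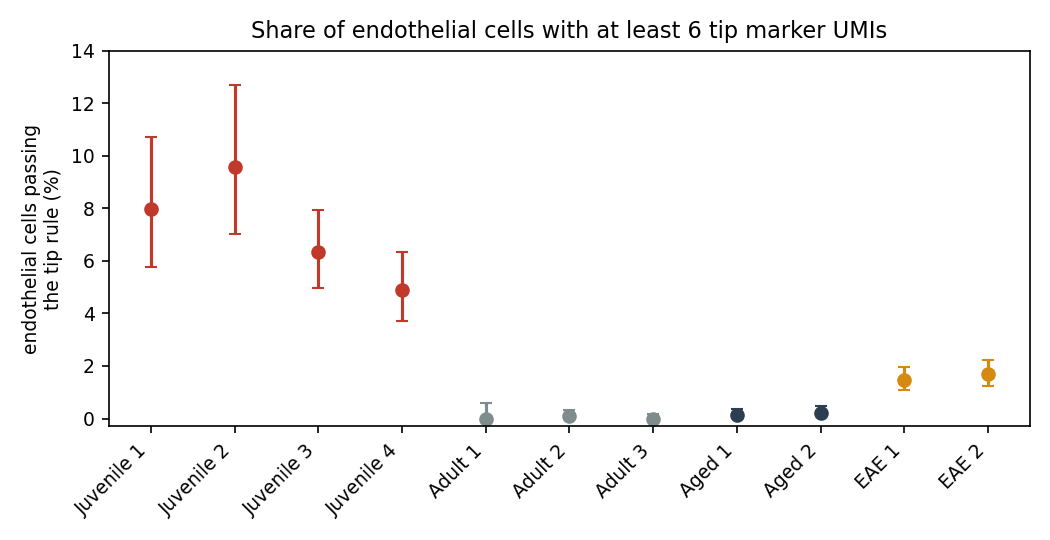
Share of ECs with at least 6 UMIs of the 4 tip markers (y axis, percent) in each of the 11 libraries (x axis), with 95% exact binomial intervals. The 4 Juvenile libraries lie at 4.91% to 9.58%, the EAE libraries at 1.48% and 1.68%, and the Adult and Aged libraries at 0% to 0.221%.

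Over all ECs of a library, Apln averaged 197, 2.74, 1.97 and 5.33 CPM in Juvenile, Adult, Aged and EAE, and Trp53i11 94.2, 9.99, 6.25 and 10.1 CPM in the same order. Fscn1 averaged 378, 25.1, 8.12 and 10.9 CPM and Lamb1 51.8, 10.6, 4.44 and 2.84 CPM. Angpt2 differed from these, with 38.3, 9.95, 28.7 and 116 CPM, and Apod with 213, 137, 112 and 677 CPM, both highest in EAE.

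Whether the rule picks out cells with the same genes in EAE was examined in a joint fit of Juvenile and EAE libraries, which tested the difference between the 2 effects and was added after the data were seen. Of 11344 genes, 310 had a larger log2 fold change in Juvenile (2.73%) and 267 a smaller one (2.35%), and 26 of the 109 genes named by the rule or leading a list differed, beside 5.09% of all genes. These 109 genes were chosen in part by their change in the same Juvenile tip ECs, which favours a larger share, so nothing is read from it. Dll4 was at 264 and 202 CPM in the EAE cells passing the rule against 93.1 and 90.9 CPM in the remaining EAE ECs, with log2 fold changes of 1.19 in Juvenile and 1.37 in EAE (adjusted p of the difference 0.769). Plaur was at 1016 and 872 against 243 and 234 CPM (log2 fold changes 2.06 and 2.02, adjusted p of the difference 0.987), and Kdr (log2 fold changes 0.43 and 0.77, 0.297) did not pass the test either. Apln was at 269 and 37.9 against 1.55 and 1.73 CPM in EAE, with a wide difference (-3.47, SE 1.05, adjusted p = 0.233).

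For several genes that led in Juvenile tip ECs the difference from EAE passed the test. These genes were picked by their change in the same Juvenile libraries, which favours a larger Juvenile effect. Their adjusted p values are therefore no independent support. Age and treatment differed together between Juvenile and EAE mice, so their parts cannot be told apart. EAE cells were also chosen mostly by Angpt2, and the part of this was not tested. Apod was at 718 and 1167 CPM in EAE cells passing the rule against 659 and 680.3 CPM in the remaining EAE ECs, so its log2 fold change was 3.11 in Juvenile and 0.51 in EAE (difference 2.59, SE 0.15, adjusted p = 5.76e-36). Clec1a was at 4.89 and 8.43 against 22.6 and 21.02 CPM, with log2 fold changes of 2.76 in Juvenile and -1.64 in EAE (difference 4.40, SE 0.52, adjusted p = 1.07e-13). Sirpa gave 2.91 in Juvenile and 0.31 in EAE (difference 2.60, SE 0.52, adjusted p = 0.000237), and Gng2 2.698 in Juvenile and -1.25 in EAE (difference 3.95, SE 0.79, adjusted p = 5.83e-05). The EAE effects of Clec1a, Sirpa, Gng2 and Fxyd6 did not themselves pass (adjusted p = 0.122, 0.85, 0.5 and 0.298), and they rest on 1 and 2, 4 and 2, 1 and 1 and 7 and 2 UMIs in the cells of EAE 1 and EAE 2 that passed the rule. Fxyd6 gave 2.97 in Juvenile and 1.08 in EAE (difference 1.89, SE 0.51, adjusted p = 0.009), and without EAE 2 the difference was 1.16, adjusted p = 0.441. The difference of Apod passed without EAE 1 and without EAE 2, where the lone EAE library is assumed to vary like the others, and did not pass at a threshold of 8 UMIs. Car4, carbonic anhydrase 4, was higher in Juvenile and lower in EAE (0.63 and -2.11, adjusted p of the difference 1.24e-33), and Pgf gave 0.90 and 3.97 (adjusted p of the difference 0.000245). Both were chosen here after their values were seen.

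**Figure D5:**
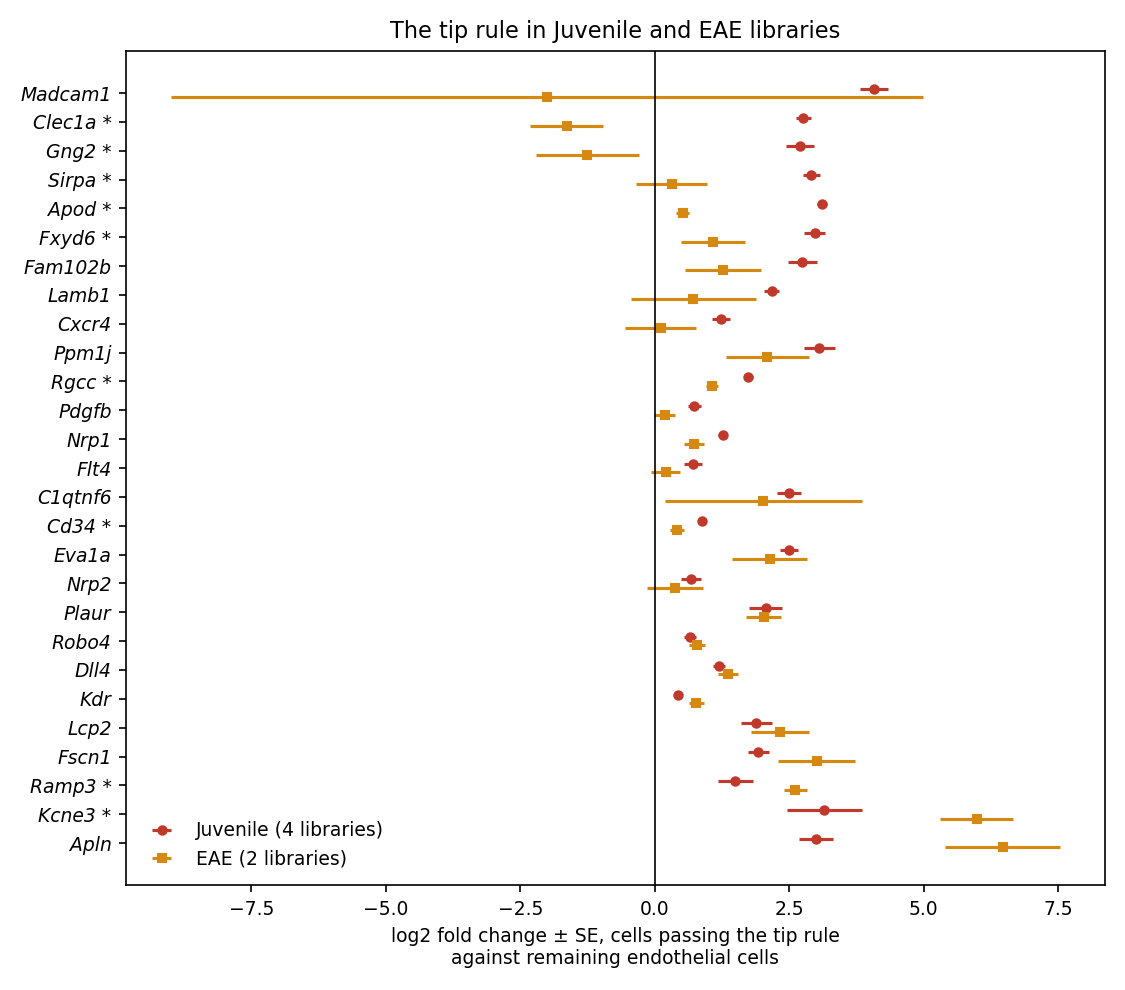
Log2 fold change with its SE (x axis) of cells passing the tip rule against the remaining ECs in Juvenile (4 libraries) and EAE (2 libraries), for the leading higher genes and the higher sprouting genes (y axis). An asterisk marks an adjusted p under 0.05 for the difference, as for Apod (3.11 against 0.51) and Clec1a (2.76 against -1.64).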

How the data were processed

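Cortical cells were captured with 10x 3′ v2 chemistry, in which reads come from the 3′ end of a transcript. Per the labels, the authors used bcl2fastq 2.19.1.403, UMI-tools 0.5.3, STAR 2.5.3a, featureCounts 1.6.1 and mm10, and deposited raw UMI counts per gene and cell for 26921 genes, whose strand setting is not given in the sources used here. The paper's methods name other versions of UMI-tools, STAR and featureCounts. Cells were chosen by the rule stated above, and their counts were summed per library and cell group. Genes were kept by filterByExpr and scaled by TMM, and the sums were tested by quasi-likelihood in edgeR 4.0.16 under R 4.3.3, with robust dispersions and with the library as a block, because both groups of a pair come from the same library. SE is the absolute log2 fold change over the square root of F. The members, the lists and the tests were chosen with earlier results of these data known. Named were the 12 largest called changes in each direction with at least 50 CPM (genes of the rule, mitochondrial, ribosomal and unnamed gene models left out), the 5 largest in each direction against cycling ECs, up to 4 called members of each list, and members that did not pass. Some genes that this rule took in are not reported here. Rule genes and the shares of tip ECs carry no test. Intervals and limits cover counting error only. On simulated counts, the fit of tip against remaining ECs (10915 genes) recovered 71.0% of genes changed by 1 on the log2 scale and 96.0% of those changed by 2, with 5.11% false calls, and that against cycling ECs (7316 genes) recovered 58.5% and 98.9%, with 4.00% false. The simulation used 1 dispersion (0.02) for all genes and changed only genes with a mean of at least 5 expected UMIs per tip sum. Its rates hold for that setting only and were not measured on the real counts, where Adm and Esm1 did not pass. Alternatives used DESeq2 1.42.0, other thresholds, depth matching, thinning and Scrublet (scanpy 1.11.5). Names and coordinates are from GENCODE M21 (GRCm38). Rgcc, Plxnd1, Id1, Id2, Id3, Id4, Smad7, Bambi, Nrp2, Flt4, Foxf2 and Foxq1 fell outside the rule for named genes and were chosen after their values were seen.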

Additional observations from a re-analysis of the deposited data

Results flagged for a closer look

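In 65 groups of 4 libraries checked for a library that stands apart, 7 passed Dixon's 95% limit, where chance gives about 1 in 20. In tip ECs these were Gng2 (ratio of gap to range 0.837, Juvenile 1 high), and the summed markers of smooth muscle (0.977), pericytes (0.863) and fibroblasts (0.830), each high in Juvenile 2. In the remaining ECs they were Vegfc (0.830), high in Juvenile 1, Ncan (0.838), high in Juvenile 2, and Mt3 (0.880), low in Juvenile 1.

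The log2 fold change of cells passing the tip rule differed between Juvenile and EAE for 26 of the 109 genes named by the rule or leading a list, by the test of the difference in the joint edgeR fit. Over all genes of that fit, 5.09% differed. Choosing genes by their change in the same Juvenile libraries favours such differences. It was larger in Juvenile, as Juvenile minus EAE, for Clec1a (4.40), Gng2 (3.95), Sirpa (2.60), Apod (2.59), Fxyd6 (1.89), the transcription factor Ets2 (0.92), Socs3 (0.86), the filopodial motor Myo10 (0.78), Ptrf (0.72), Pfn1 (0.68) and Cd34 (0.46). It was smaller in Juvenile for the globins Hba-a2 (-5.43) and Hba-a1 (-5.23), for Vegfa (-4.69), Kcne3 (-2.83), Smad6 (-2.38), Vcam1 (-1.87), Mt3 (-1.82), Icam1 (-1.47), Nebl (-1.20), Bnip3 (-1.19), Ramp3 (-1.12), Ttr (-1.08), Meox1 (-1.02), Ocln (-0.69) and Pkm (-0.43). For Hba-a1, Mt3, Kcne3, Vegfa, Ramp3, Myo10, Pkm, Ocln, Meox1 and Ets2 the difference did not pass without EAE 1, and for Fxyd6, Hba-a1, Nebl, Myo10, Pkm, Vcam1, Icam1, Ets2, Cd34 and Socs3 it did not pass without EAE 2, where the lone EAE library is assumed to vary like the others. It did not pass without Juvenile 1 for Hba-a2, Hba-a1, Kcne3, Ocln, Icam1, Cd34 and Socs3, without Juvenile 2 for Mt3 and Pkm, without Juvenile 3 for Fxyd6, Kcne3, Ramp3, Myo10, Bnip3, Ocln and Ets2, without Juvenile 4 for Fxyd6, Hba-a1, Mt3, Ramp3, Meox1 and Cd34, at a threshold of 8 UMIs for Apod, Mt3, Vegfa, Ramp3, Pkm, Ptrf, Icam1 and Ets2, and with RLE size factors for Myo10, Ets2 and Cd34. Of the other genes given in the report, Car4, Cdh5, Col4a1, Col4a2, Foxq1, Gapdh, Gja1, Id1, Id2, Id3, Igf1r, Jag1, Ldha, Pgf, Plat, Ramp2, Rgcc and Smad7 also differed at an adjusted p under 0.05. Nothing is read from how many these were. EAE cells passing the rule were chosen mostly by Angpt2, with 88.1% and 83.0% of their marker UMIs, and the part of this in the differences was not tested.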

How the results depend on the processing

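Of 113 named genes, 58 kept their direction and their side of the threshold in all alternatives run for tip against remaining ECs (2107 values kept both, 171 no longer passed, 26 newly passed and 15 changed sign). All 132 values of the 8 genes named against cycling ECs kept both, and of 29 genes compared between Juvenile and EAE, 6 did. Without the library block, 666 genes were lower in tip ECs instead of 1000, and no other count of that fit moved by over 1.5 times. Summing Juvenile 1 with 2 and 3 with 4 gave 645 lower. DESeq2 gave 1282 genes in all and 524 lower, and against cycling ECs 1296 in all, 630 higher and 666 lower. Only Juvenile 1 and 2 gave 1214 in all, 677 higher and 537 lower, and against cycling ECs 1568, 770 and 798. The rule on the share of UMIs gave 665 higher, and cells thinned to 2000 UMIs gave 753 in all, 410 higher and 343 lower, with 7035 genes tested. Leaving out 1 Juvenile library gave 801 to 1037 higher and 646 to 998 lower, the fewest of both without Juvenile 3. The Juvenile share of tip ECs was 10.8% at a threshold of 4 UMIs, 5.11% at 8 and 3.70% by the share of UMIs. Leaving out 1 library gave 310 to 556 genes that differed between Juvenile and EAE instead of 577, with 324 without EAE 1 and 310 without EAE 2.

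Signs changed at a threshold of 4 UMIs for Hba-a2 (0.21), Hbb-bt (0.95), Hba-a1 (0.0871), Slc1a2 (0.25), Slc1a3 (0.38) and Cspg5 (0.39), without cells carrying RNA of other types for Hba-a1 (0.23), Igf2 (0.56), Cspg5 (0.0292), Folr1 (0.0442), Clic6 (0.31) and Kl (0.92), by the share of UMIs for Ramp3 (-0.18), and for Plvap with DESeq2 (-0.69) and in only Juvenile 3 and 4 (-8.32), where tip ECs had no Plvap UMI. None of these passed except Plvap in the last. The difference between Juvenile and EAE changed sign for Plaur with RLE size factors (-0.11), without EAE 2 (-0.00886) and without Juvenile 4 (-0.33, the range over left-out libraries being -0.33 to 0.25), and for Dll4 without EAE 1 (0.00515, range -0.33 to 0.00515), where it had not passed in the first place. Apart from fewer genes tested after thinning and fewer libraries in part of the fits, the cause was not tested. With 207 tip ECs, genes under about 50 CPM rest on few UMIs, as for Kcne3, Vegfa and Pgf, and with 45 and 48 such cells in EAE, so do Clec1a, Sirpa, Gng2 and Fxyd6.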
